A study of Drosophila melanogaster with 3 samples.

Results

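At promoters of Drosophila genes that start from a single place, Psq was profiled by chromatin immunoprecipitation and sequencing (ChIP-seq). A peak was kept when its summit, the base of highest signal, lay within 500 bp of a transcription start site (TSS) and the nearest TSS belonged to a protein-coding gene with exactly 1 annotated TSS. A peak was dropped when TSSs of 2 genes on opposite strands lay within 500 bp of its summit. Of the 10105 peaks on the nuclear chromosome arms in the authors' optimal list of reproducible peaks, 1017 met the rule. They lay at 939 genes, of which 861 had 1 such peak and 78 had 2. Each listed summit counted as 1 peak, also where 2 summits shared a called region. The other 33 of the 10138 listed peaks were not on these arms and were not used. Within the list, peaks were kept by summit position and gene annotation, and neither score nor sequence entered the rule. The list itself had been thresholded by the authors on reproducibility between replicates.

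The chromatin came from whole larvae in the third instar, at the wandering stage, with males and females pooled and of unknown age. The transgenic line, labelled psq-GFP, stably expressed Psq with GFP fused at its C-terminal end, and the precipitation used an antibody against GFP. All 3 biological replicates carried this tag, and there was no other genotype, treatment or stage. Chromatin was sonicated, and the labels give a size range of 200 to 300 bp for replicate 1, of 175 to 275 bp for replicate 2 and of 175 to 250 bp for replicate 3. Chromatin of all tissues was mixed, so a peak present in few cells and a weak peak present in all cells cannot be told apart. Only this tagged line was profiled, so the values are those of the fusion protein.

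Pipsqueak (Psq) belongs to the BTB proteins, which associate with one another through that domain, and its own DNA-binding repeats recognise GA-rich sequence. GA repeats are also the sites of GAGA factor, another BTB protein known for keeping promoters accessible. Fly core promoters fall broadly into developmental ones, with GA repeats, TATA boxes or initiators, and housekeeping ones, with the DREF site or the element called motif 1.

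Sequences at the peaks that lead the results showed short GA runs, CA repeats and housekeeping words in different places. Each is written 5′ to 3′ in the direction of the gene, from the RefSeq sequence of dm6, with the searched word or its reverse complement in capitals. The first 8 lines show GA words. The 4 summits in transcribed leaders (FBXO11, dnt, Syx1A and Spn27A) are shown by 30 bases around a word, and the others by 101 bases centred on the summit. FBXO11 lies on the minus strand at chr3R:9809045-9809074, dnt on the minus strand at chr2L:19362942-19362971, Syx1A on the minus strand at chr3R:24105410-24105439 and Spn27A on the minus strand at chr2L:6673272-6673301. The window of trbl is chr3L:20401652-20401752 on the minus strand, that of Sema5c is chr3L:12081817-12081917 on the minus strand, that of bchs is chr2L:5907436-5907536 on the plus strand and that of Dr is chr3R:29556189-29556289 on the plus strand. The capitals of Dr mark the longer repeat GAGAGAGA, and those of the others mark GAGAG.
FBXO11: aaacaaaacaaagGAGAGacaaaggataga
dnt: cgtccgtgtCTCTCTCTCcccccacccccg
Syx1A: caagcgaaaagGAGAGAGaaagaacaaata
Spn27A: ctccaccggcgCTCTCTCgccgctcgcccc
trbl: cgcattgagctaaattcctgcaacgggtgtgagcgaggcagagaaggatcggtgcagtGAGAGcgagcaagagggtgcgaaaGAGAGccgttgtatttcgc
Sema5c: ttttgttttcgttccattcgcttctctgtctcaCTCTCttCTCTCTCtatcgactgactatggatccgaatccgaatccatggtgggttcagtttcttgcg
bchs: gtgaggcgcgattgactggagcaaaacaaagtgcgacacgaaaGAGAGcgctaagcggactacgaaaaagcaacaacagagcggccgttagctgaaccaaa
Dr: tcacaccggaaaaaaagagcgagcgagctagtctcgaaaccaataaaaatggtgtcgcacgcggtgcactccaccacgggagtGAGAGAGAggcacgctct

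Housekeeping words and CA repeats are shown by Abl and CG4098, as examples of upstream and proximal holders, and by RpS12, unk and kuz, whose values are given later. Abl (minus strand, chr3L:16647925-16647954) and RpS12 (plus strand, chr3L:13023300-13023329) carried the DREF site TATCGATA upstream of their TSSs. CG4098 (minus strand, chr3L:16609366-16609395) carried the motif 1 word GGTCACAC as its reverse complement. The intron window of unk (minus strand, chr3R:23157320-23157420) and the leader of kuz (plus strand, chr2L:13550254-13550283) carried a CA repeat that read as a TG repeat in the direction of the gene. CG14100 (minus strand, chr3L:19590573-19590673) is shown because it was among the highest-scoring peaks with none of these words, and its line has no capitals.
Abl: tttattatcaaTATCGATAcgtctatcggt
RpS12: ctctgcgaaacTATCGATAtttgtaccaat
CG4098: tatgcggcctaGTGTGACCagctggtccta
unk: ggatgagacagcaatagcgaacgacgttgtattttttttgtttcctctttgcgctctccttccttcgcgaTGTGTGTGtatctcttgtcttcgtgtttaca
kuz: gcgtgcgttcgTGTGTGTGTGTGTGctaat
CG14100: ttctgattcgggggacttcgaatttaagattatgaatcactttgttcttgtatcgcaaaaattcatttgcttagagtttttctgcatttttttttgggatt

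The replicates were compared through their own peak lists, which held 28037, 28294 and 24291 peaks. From each, the 10138 highest-scoring peaks were taken, as many as in the optimal list. The score is the authors' own signal value for a peak, and it was divided by the median of those 10138 peaks to give a relative score. The rule applied to these lists gave 1061, 1050 and 1041 promoter peaks at single-TSS genes, at 976, 965 and 946 genes. Of the 1017 peaks of the optimal list, 776, 829 and 819 had a summit within 200 bp in replicates 1, 2 and 3. The same replicate summit could match 2 neighbouring peaks of the optimal list. All 3 replicates held such a summit for 592 peaks, 2 held it for 264, 1 held it for 120 and none held it for 41. Where all replicates held the peak, its mean relative score had a median of 1.48 and ran from 0.477 to 12.0, and the median coefficient of variation over replicates was 24.7%. The optimal list was derived from these same replicates, so the matches are not an independent repeat. Peak lists carry no read counts, so the depth is unknown, and where a promoter has no peak the data say only that none was called.

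Most of these peaks lay within 100 bp of the start site. Their median width was 206 bp, and the median summit lay 10 bases upstream of the TSS, at −10, with quartiles at −59 and 42. Of all 1017, 505 (49.7%) lay within 50 bp of the TSS and 6 fell on the TSS base. Summits upstream of the TSS made up 55.3%, 55.1% and 51.6% in replicates 1, 2 and 3, and 56.2% in the optimal list. The counts fell off on both sides and rose again inside the gene.

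**Figure D1:**
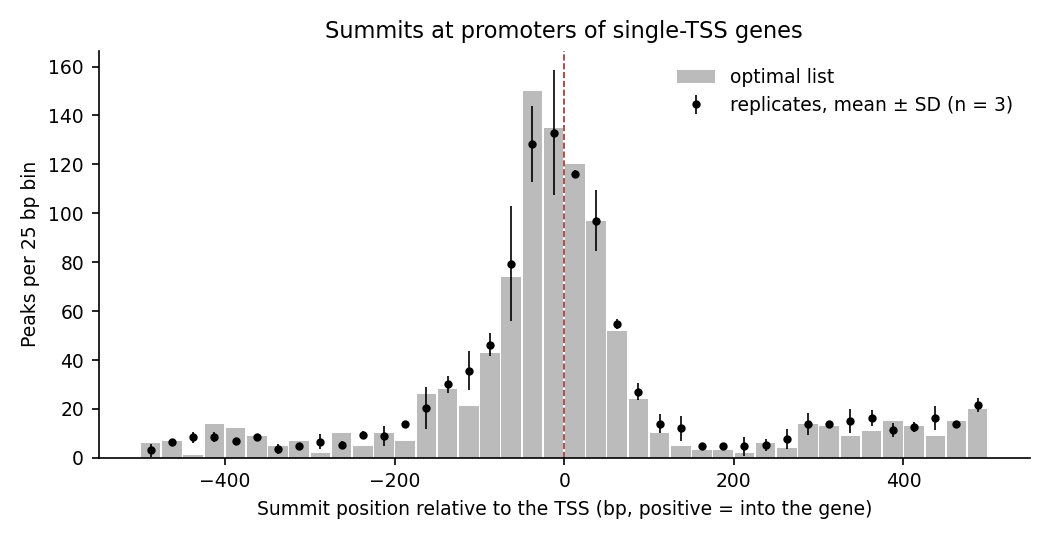
Number of peaks per 25 bp of summit position relative to the TSS (x axis in bp, positive values inside the gene), with bars for the optimal list and points for the mean ± SD of 3 replicates. A tall central mass between −100 and 100 is followed by few summits between 101 and 250 and by more between 251 and 500.

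To describe that shape, the range was divided into bands whose edges were drawn after the positions had been seen, so no test was made between bands. The proximal band, from −100 to 100, held 695 peaks (68.3%; 64.9% ± 2.16 over the replicates, SD, n = 3). The upstream band, from −500 to −101, held 170 peaks (16.7%; 17.2% ± 2.14). Between 101 and 250 lay 29 peaks (2.85%; 4.44% ± 0.530), and from 251 to 500 lay 123 (12.1%; 13.5% ± 1.50). Per 100 bp this is 346 peaks in the proximal band, 42.5 upstream, 19.3 between 101 and 250 and 49.2 in the downstream band. The dip and the later rise were thus present in the replicates as well as in the optimal list.

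Peaks of the downstream band lay mostly in transcribed but untranslated parts of the gene. Of the 123, 60 summits fell in a 5′ UTR, 50 in an intron, 12 in coding sequence and 1 in another exon. Those in 5′ UTRs had a median score of 1.37 times the median of the optimal list, those in introns 1.02 times and those in coding sequence 0.706 times. Downstream peaks were found in all replicates in 62.6% of cases, proximal ones in 59.3% and upstream ones in 52.9%. At the outer edge of the rule, the 47 peaks at 451 to 500 bp had a median score of 0.973 times the list median, and 46.8% held GAGAG. The 55 peaks just outside, at 501 to 550 bp from the TSS of a single-TSS gene, had 1.08 times and 50.9%.

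GA words were frequent but far from general at these promoters. GAGAG occurred on either strand within 100 bp of 418 of the 1017 summits (41.1%), and in 40.2%, 40.0% and 42.0% of the peaks of replicates 1, 2 and 3. The longer GAGAGAGA, which always contains GAGAG, occurred at 78 (7.67%; 7.61% ± 0.293 over replicates). In the direction of the gene, GAGAG was read at 256 summits and its reverse complement CTCTC at 233, with both at 71, so the strands were used about equally. For scale, 21.3% of all 10246 single-TSS promoters held GAGAG in a window of the same length, 201 bp, running from −150 to 50. GA words were not particular to these peaks. In the optimal list, GAGAG was present at 46.1% of the 5647 peaks not within 500 bp of a TSS. It was present at 56.6% of the 1351 peaks at internal promoters of multi-TSS genes. Where TSSs of 2 genes on opposite strands lay within 500 bp, the share was lower, 27.2% of 958.

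The highest-scoring peaks held GA words more often. When the 1017 were ranked by score and divided into 5 groups of equal size, GAGAG was present in 56.4%, 46.8%, 36.5%, 30.0% and 35.8% from the highest group to the lowest. GAGAGAGA was present in 14.2% of the highest group and 4.90% of the lowest. The motif 1 word went the other way, from 2.45% in the highest group to 12.3% in the lowest. The DREF site showed no such course, with 6.86% in both the highest and the lowest group. CA repeats, searched as CACACACA and its reverse complement TGTGTGTG, were present in 18.1% of the highest group and between 7.84% and 11.8% of the others.

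GA words and housekeeping words were seldom found at the same summit. TATCGATA occurred at 76 summits (7.47%; 7.43% ± 0.754 over replicates) and GGTCACAC at 66 (6.49%; 5.39% ± 0.0735), and 5 summits held both. Of the 137 with either of these words, 27 (19.7%) also held GAGAG, against 391 of the other 880 (44.4%). In replicates 1, 2 and 3 the share with GAGAG was 16.5%, 16.2% and 19.3% beside a housekeeping word and 43.3%, 43.4% and 45.4% without one. The difference was −26.7 ± 0.559 percentage points (SD, n = 3), below 0 in every replicate. Position differed too: 74 of the 76 TATCGATA summits and 62 of the 66 GGTCACAC summits were proximal, where 36.0% of all summits held GAGAG. The part of position in the difference was not tested. Peaks with GAGAG alone had a median score of 1.26 times the list median and a median distance of 78 bp from the TSS. Those with a housekeeping word alone had 0.835 times and 27.5 bp. At 489 summits none of these 3 words was present.

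The words also differed with position. GAGAG was present at 94 of the 170 upstream summits (55.3%), at 250 of the 695 proximal ones (36.0%) and at 65 of the 123 downstream ones (52.8%). Over the replicates the upstream band exceeded the proximal one by 20.2 ± 3.70 percentage points, and the downstream band exceeded it by 14.1 ± 2.55 (SD, n = 3, above 0 in all replicates). CACACACA stood out downstream, where 51 of 123 summits held it (41.5%), against 46 of 695 in the proximal band (6.62%). That difference was 26.7, 25.2 and 32.8 percentage points in replicates 1, 2 and 3, or 28.2 ± 4.05. Of the 51 downstream holders, 43 read TGTGTGTG in the direction of the gene and 12 read CACACACA, with 4 reading both. The repeat was about as frequent in 5′ UTRs (28 of 60) as in introns (22 of 50) of that band.

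Housekeeping words kept to the start site. TATCGATA lay at 74 proximal summits (10.6%), 2 upstream ones and no downstream one. GGTCACAC lay at 62 proximal summits (8.92%), 2 upstream, 2 between 101 and 250 and none downstream. Proximal exceeded downstream summits by 10.8 ± 0.869 percentage points for TATCGATA and by 7.87 ± 0.279 for GGTCACAC (SD, n = 3, above 0 in all replicates). Every proximal window held the TSS and no window of the other bands did, so the bands in part set this difference. How often these words occur at downstream positions without a peak was not counted. GGTCACAC was directional, with 56 summits holding it in the direction of the gene and 13 in the opposite direction, 3 of them both. Base composition moved with position as well: the median GC content of the 201 bp windows was 45.8% in the proximal band, 49.3% upstream and 48.3% downstream. Its part in the word shares was not tested.

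**Figure D2:**
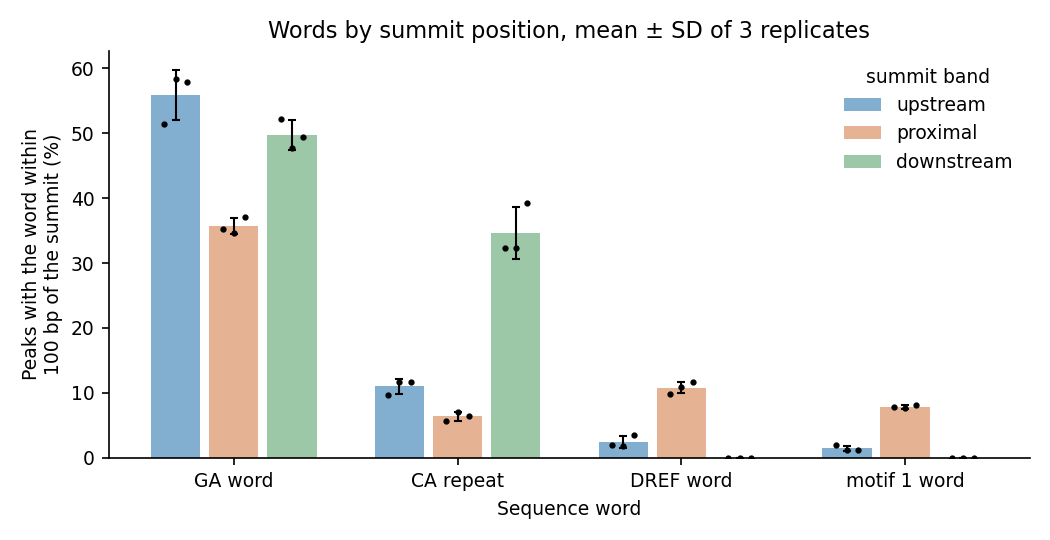
Percent of peaks with a word within 100 bp of the summit (y axis) for 4 words (x axis) in the upstream, proximal and downstream bands; bars are means, error bars SDs and dots the 3 replicates. GAGAG (GA word) is lowest in the proximal band, CACACACA (CA repeat) is highest downstream at 34.6% ± 3.99, and TATCGATA (DREF word) and GGTCACAC (motif 1 word) are absent downstream.

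Other promoter words were counted over the same windows. TCAGT, the core of the initiator at which transcription starts, was present at 392 summits (38.5%), 295 of them in the direction of the gene and 140 in the opposite one, with 43 both. Its share was 44.3% in the proximal band, 27.6% upstream and 23.6% downstream, where again only the proximal windows held the TSS. TATAAA, the core of the TATA box, was present at 158 summits (15.5%). AACCGGTT, a palindrome of the kind bound by Grainyhead, an epithelial factor, was rare, at 13 summits, of which 7 lay in the upstream band. GCCAT, the core bound by the Polycomb recruiter Pho, was present at 315 summits (31.0%). TTCGAA, a palindrome without a GA run searched for comparison, was present at 107 (10.5%). The E-box CAGCTG was present at 144, the E-box CACGTG at 39 and CAGGTAG, the site of the early embryonic factor Zelda, at 10.

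Promoters with a peak by the rule were then set against all other single-TSS promoters, with windows fixed on the TSS, not the summit. The others can include promoters whose peak the rule dropped for an opposite-strand TSS within 500 bp of its summit. Between −150 and 50, GAGAG was present at 355 of the 939 genes with a peak (37.8%) and at 1823 of the 9307 others (19.6%), a difference of 18.1 ± 0.557 percentage points over the replicates. GAGAGAGA was present at 6.18% and 1.59%. The DREF site was present at 11.7% and 7.80% (difference 3.80 ± 0.415) and GGTCACAC at 10.2% and 6.68% (2.97 ± 0.246). Each of these was higher at genes with a peak in all 3 replicates. TTCGAA, the word searched for comparison, was also higher in all 3 replicates, at 12.1% and 9.11% (3.09 ± 1.01). The differences of the DREF site and GGTCACAC were thus of about the size seen for that word. CAGCTG was present at 15.2% and 14.2% (1.93 ± 0.556, above 0 in all 3 replicates). GCCAT was present at 29.8% and 31.3%, and its difference of −0.499 ± 1.13 was smaller than the spread between replicates.

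Core promoter elements at their fixed positions also differed between the genes with a peak by the rule and the other single-TSS genes. TATAAA between −45 and −15, read in the direction of the gene, was present at 4.69% of genes with a peak and 11.2% of the others, a difference of −6.91 ± 0.661 percentage points. TCAGT between −5 and 6 was present at 15.7% and 7.92%, a difference of 8.10 ± 0.207. CACACACA between 200 and 500, inside the gene, was present at 16.3% and 4.00%, a difference of 12.5 ± 0.983. All of these held their direction in all 3 replicates. Expression was not measured here, so how many of either set of genes were active is unknown.

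The 20 highest-scoring peaks found in all replicates belonged to 19 genes and included genes of signalling, secretion and metabolism. FBXO11, the substrate-binding subunit of a ubiquitin ligase, had the highest peak (chr3R:9808922-9809323, summit in the 5′ UTR at 277), with relative scores of 12.5, 11.2 and 12.3 in replicates 1, 2 and 3 (12.0 ± 0.730, SD, n = 3). sgl, which encodes UDP-glucose dehydrogenase, an enzyme needed for heparan sulfate, had 10.6, 10.1 and 11.4 at 131 in its 5′ UTR (10.7 ± 0.666). dnt, a Ryk-type Wnt receptor, had 8.14, 9.20 and 10.4 at 294 (9.25 ± 1.14). FBXO11 was above sgl and sgl above dnt in every replicate, although the range of each overlapped that of the next.

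Next in rank, Syx1A, the syntaxin of neurotransmitter release, had 10.2, 8.31 and 8.87 at 370 (9.12 ± 0.955). Spn27A, a serpin that restrains melanization, had 8.59, 7.49 and 7.86 at 70 (7.98 ± 0.559). trbl, a pseudokinase that slows the cell cycle, had 7.39, 8.20 and 7.63 at −93 (7.74 ± 0.418). These 3 peaks each held GAGAG at least 2 times within 100 bp of the summit. Sema5c, a semaphorin, had 7.70, 9.45 and 6.11 at −37 (7.75 ± 1.67). CG14100 was the least even of the 20, at 9.51, 5.75 and 3.84 (6.37 ± 2.88), and held none of the words above apart from TTCGAA.

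Further down, Duox, the dual oxidase that makes hydrogen peroxide, had a peak at 52 in its 5′ UTR with relative scores of 4.79, 6.20 and 6.20 and another at 464 in an intron with 4.79, 6.12 and 6.07. The Duox peaks were nearly equal in each replicate. wit, a type II BMP receptor, had 5.80, 4.16 and 5.03 at −6, almost on its TSS. bchs, a BEACH protein linked to autophagy, had 6.63, 5.90 and 5.38 at 317 in an intron. unk, a zinc finger protein, had 4.90, 6.29 and 7.41 at 492 in an intron. Of all 20, 9 lay in the downstream band, 8 in the proximal band, 2 upstream and 1 between 101 and 250. GAGAG was present at 15 of them, and no TATCGATA or GGTCACAC at any.

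**Figure D3:**
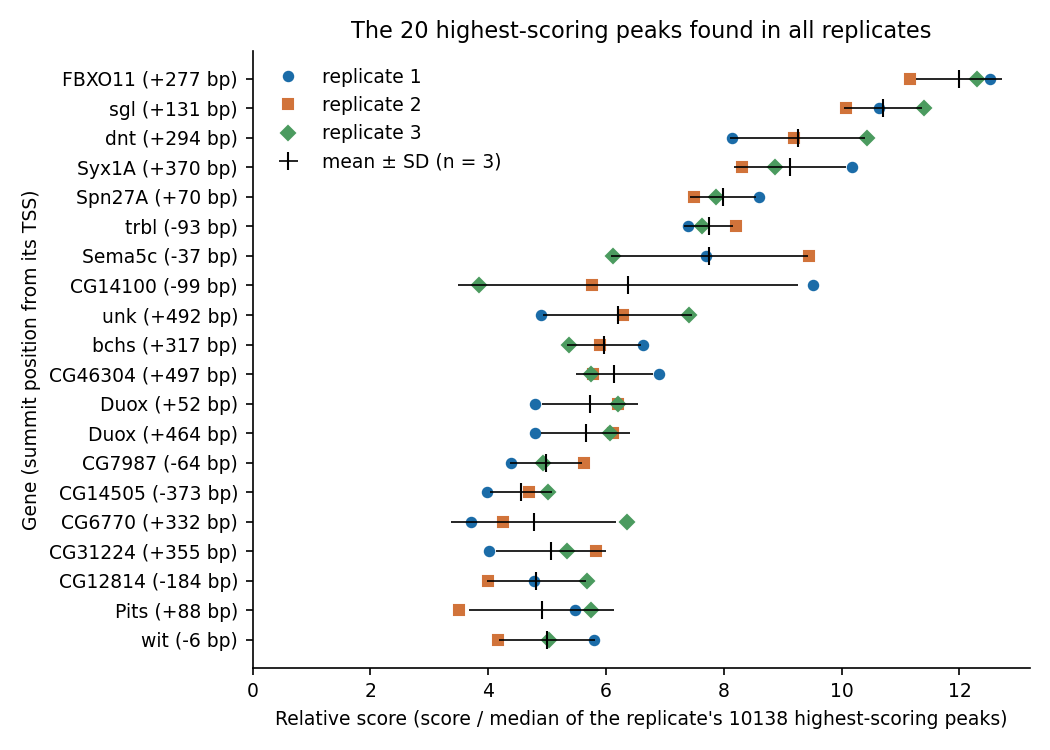
Relative score (x axis, ratio to the median of the replicate's 10138 highest-scoring peaks) of the 20 highest-scoring peaks found in all replicates, with 1 symbol per replicate and the mean ± SD. Values span 3.50 to 12.5, FBXO11 leads, and CG14100 has the widest spread.

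Genes with 2 peaks at 1 start site numbered 78, with a median distance of 405.5 bp between the summits and a range of 201 to 768 bp. Among those with a peak of high score, trbl had its weaker peak at 312 in the 5′ UTR, with relative scores of 3.09, 1.69 and 1.13, below its peak at −93 in every replicate. bchs had its weaker peak at −95 with 2.63, 2.37 and 1.89, and unk at −7 with 2.03, 1.18 and 1.71, both below the intron peak of the same gene in every replicate. In bchs, unk and Syx1A the stronger peak lay downstream of the TSS, and in trbl it lay upstream. The weaker Syx1A peak, at −48, was matched in replicate 3 alone, with a relative score of 1.54. CG46304 had 6.89, 5.77 and 5.74 at 497 and 4.70, 5.67 and 3.40 at −271. Another optimal peak lay inside the gene more than 500 bp from the TSS in 283 of the 939 genes (30.1%), with up to 23 in 1 gene.

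Genes with a promoter peak were long and had long first introns. Across all 10246 single-TSS protein-coding genes, 939 were called as having such a peak (9.16%), and over the replicates the share was 9.53%, 9.42% and 9.23%. Their median gene length was 3850 bp, against 1671 bp for the other single-TSS genes, and their median first intron was 442 bp against 63 bp. Of the 907 genes with a first intron over 2000 bp, 283 had a peak (31.2%; 31.4% ± 1.17 over replicates, SD, n = 3). The share was 19.9% for first introns of 501 to 2000 bp, 8.89% for 101 to 500 bp, 4.71% for 1 to 100 bp and 5.43% for genes without an intron. Short introns and no intron thus both lay below the share over all genes.

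The course over first introns was also seen within subsets of genes. Among the 6894 genes with 1 transcript, of which 6.30% had a peak, the share went from 4.46% (4.30% ± 0.0595) with a first intron of 1 to 100 bp to 23.7% (24.3% ± 1.63) with one over 2000 bp. Within the longest of 5 equal groups of genes, from 4104 bp, it went from 5.88% (5.73% ± 1.09) to 31.9% (32.1% ± 0.925). By gene length alone, 2.63% of the shortest of these groups and 21.9% of the longest had a peak. Genes with 4 or more transcripts from their 1 TSS had a peak in 24.7% of cases. By chromosome arm the shares ran from 7.81% on 2L to 11.9% on chromosome 4, where 42 genes were counted.

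The distance to the nearest start site on the other strand was partly set by the rule. Of the 2898 genes with an opposite-strand TSS within 500 bp, 43 (1.48%) had a peak, since the rule drops summits near both starts. Of the 7348 genes without one, 896 (12.2%; 12.3% ± 0.237 over replicates) had a peak. Of the 993 with the nearest at 501 to 1000 bp, 180 had one (18.1%; 17.4% ± 0.497), and of the 6355 farther away, 716 (11.3%; 11.5% ± 0.199). In the 7348 genes the first intron showed the same course, from 6.95% at 1 to 100 bp to 34.1% over 2000 bp.

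**Figure D4:**
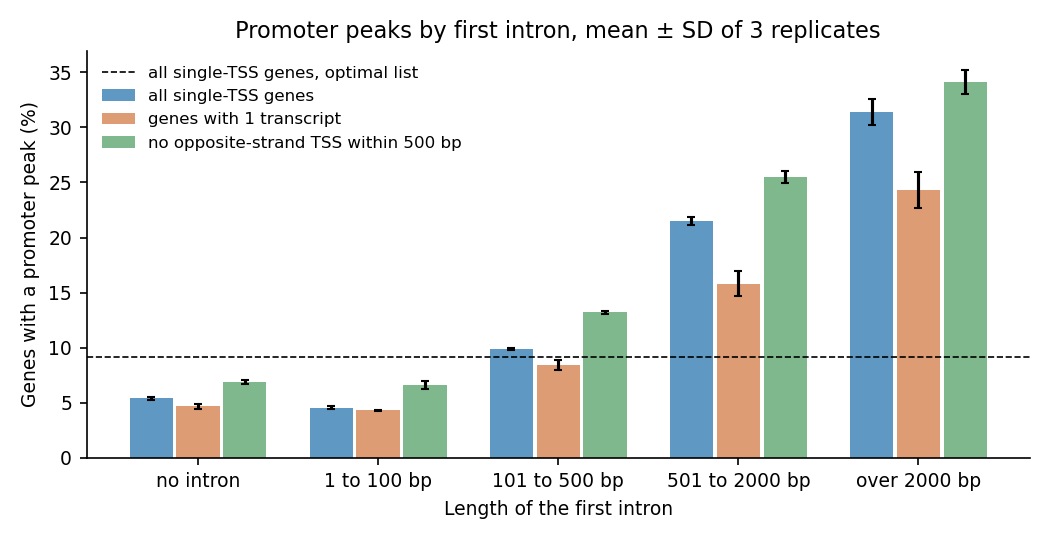
Percent of single-TSS genes with a promoter peak (y axis) by length of the first intron (x axis), for all such genes, for those with 1 transcript and for those without an opposite-strand TSS within 500 bp; bars are means and error bars SDs of 3 replicates. The dashed line is the 9.16% over all genes, and in each set of genes the bars over 2000 bp are the highest.

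The lists with the highest shares, beside the 9.16% called over all single-TSS genes, were of signalling and developmental genes. In every list, a gene whose peaks the rule dropped for an opposite-strand TSS within 500 bp counted as having none. The part of this in the list shares was not tested. In the Notch pathway and Enhancer of split list, by which neighbouring cells signal to each other, 10 of 20 single-TSS genes had a peak (11, 11 and 12 in replicates 1, 2 and 3). kuz, the metalloprotease that cleaves Notch, had relative scores of 2.76, 5.01 and 4.52 at 48 (4.10 ± 1.19). dx, an intracellular regulator of Notch, had 3.10, 2.17 and 2.50 at 276, and fng, the glycosyltransferase that tunes Notch to its ligands, had 1.45, 1.95 and 2.72 at −12. E(spl)malpha-BFM, a Bearded-family gene switched on by Notch, had 3.35, 1.87 and 2.40 at −216. The receptor gene N itself had 1.66, 1.34 and 2.51 at 356 in its 5′ UTR. GAGAG lay near the strongest peak of 6 of the 10 genes, and their median score was 1.90 times the list median, against 1.09 times over all 939 genes. Several of these genes are neighbours in the Enhancer of split complex and so are not independent loci.

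Homeobox factors, which set the identity of body parts and neurons, had a peak at 21 of 55 single-TSS genes (26, 23 and 26 in the replicates). eyg, an eye-promoting Pax gene, had relative scores of 3.55, 2.70 and 2.52 at −217 (2.92 ± 0.548). Dr, which patterns muscles and the nervous system, had 1.83, 2.77 and 2.34 at −147. Dll, the limb-forming factor, had 2.07, 1.96 and 2.96 at −90, and exex, a motor neuron factor, had 1.49, 2.17 and 1.13 at −122. The 4 strongest thus all lay upstream of the TSS. GAGAG lay near the strongest peak of 15 of the 21 genes and a housekeeping word near 1, where over all 939 genes these shares were 41.1% and 13.4%.

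BTB-domain transcription factors, relatives of Psq, had a peak at all 4 of the single-TSS genes listed (2, 4 and 4 in the replicates). ken, a repressor acting on JAK/STAT targets, had relative scores of 3.30, 4.33 and 3.47 at 57. bab2, which patterns the leg, had 1.43, 1.29 and 2.23 at 43. mod(mdg4), an insulator protein, had no matching summit in replicate 1 and 1.07 and 0.621 in replicates 2 and 3, and bab1 likewise had none in replicate 1 and then 0.549 and 0.873. The last pair were weak peaks, the list is small, and bab1 and bab2 lie near each other on chromosome arm 3L.

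Among single-TSS genes, 4 of 11 nuclear receptors and ecdysone response genes had a peak (4, 3 and 4 in the replicates), as had 4 of 17 of the Polycomb and trithorax group (4, 3 and 4) and 6 of 17 heat shock proteins and chaperones (5, 5 and 5). Hr39, a nuclear receptor, had 3.07, 2.89 and 1.86 at 31. ImpE2 and ImpE1, induced by ecdysone at metamorphosis, had 1.23, 1.49 and 1.26 at −202 and 1.00, 1.09 and 1.30 at −108, and knrl, another nuclear receptor, was matched in replicates 1 and 3 alone. trx, the histone methyltransferase that keeps homeotic genes active, had 5.12, 3.08 and 4.11 at 384 in its 5′ UTR, with GAGAG. Pcl, a partner of the Polycomb methyltransferase, had 1.29, 1.12 and 0.861 at 246, while osa was matched in replicates 1 and 2 and Pc in replicate 3 alone. Hsp23 and Hsp27, small heat shock proteins, had 5.02, 1.93 and 3.44 at −159 and 3.75, 2.11 and 2.67 at −26, lowest in replicate 2 in both cases. DnaJ-1, a co-chaperone, had 1.54, 1.35 and 1.15 at 44, and Hsf, the factor that switches on heat shock genes, had 1.61, 0.932 and 0.695 at 474. GAGAG lay near the strongest peak of 1 of the 6 genes of the heat shock list, and 1 of the 6 had no matching summit in any replicate. Hsp23, Hsp27 and that gene without a matching summit lie close together on chromosome arm 3L and so are not independent loci. The same holds for Hsf and Pcl on chromosome arm 2R, although they are in different lists. Ecdysone synthesis had 1 of 6 genes with a peak: sro, matched in replicates 1 and 2 with 0.598 and 0.569. By the rule, sad, spok, nvd, ecd and dib had none.

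Among housekeeping lists, cytoplasmic ribosomal proteins had a peak at 13 of 48 single-TSS genes (12, 11 and 14 in the replicates; 27.1%). RpL23A had relative scores of 2.86, 2.56 and 4.31 at −75, RpS28b had 3.80, 2.60 and 3.14 at −25, RpS12 had 2.61, 1.66 and 3.39 at −20 and RpL8 had 2.49, 2.10 and 2.85 at −8. All of these lay just upstream of the TSS, and replicate 2 was the lowest in each. GAGAG lay near the strongest peak of 1 of the 13 genes and a housekeeping word near 6. Mitochondrial ribosomal proteins had a peak at 2 of 67 genes and translation factors at 2 of 32. For proteasome subunits this was 0 of 36 (2, 2 and 1 in the replicates) and for Mediator subunits 0 of 24. Peaks dropped for an opposite-strand TSS are not counted here, so 0 need not mean that no peak was called. The respiratory chain, with 5 of 52, and RNA polymerase II and TFIID, with 4 of 34, were near the background. Splicing had 2 of 27, DNA replication 2 of 26, aminoacyl-tRNA synthetases 1 of 22 and the cell cycle 3 of 13, among them dap, a CDK inhibitor, with 4.19, 5.16 and 4.03 at −47.

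By the rule, genes of terminal tissues had shares below the 9.16% over all single-TSS genes in the optimal list. Cuticle proteins had a peak at 1 of 110 single-TSS genes, TwdlE, which had no matching summit in any replicate. Chemosensory receptors had 1 of 167, and odorant-binding proteins, antimicrobial and immune effectors and digestive proteases had 0 of 42, 0 of 53 and 0 of 27. In the replicates' own lists these 3 had at most 1 gene each. Cytochrome P450 enzymes had 3 of 71, male germline genes 1 of 33, and larval serum, yolk and glue proteins 2 of 28 (4, 2 and 4 in the replicates, or 11.9% ± 4.12, SD, n = 3), among them the glue gene Sgs5 with 0.517, 0.959 and 1.35 at −85.

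**Figure D5:**
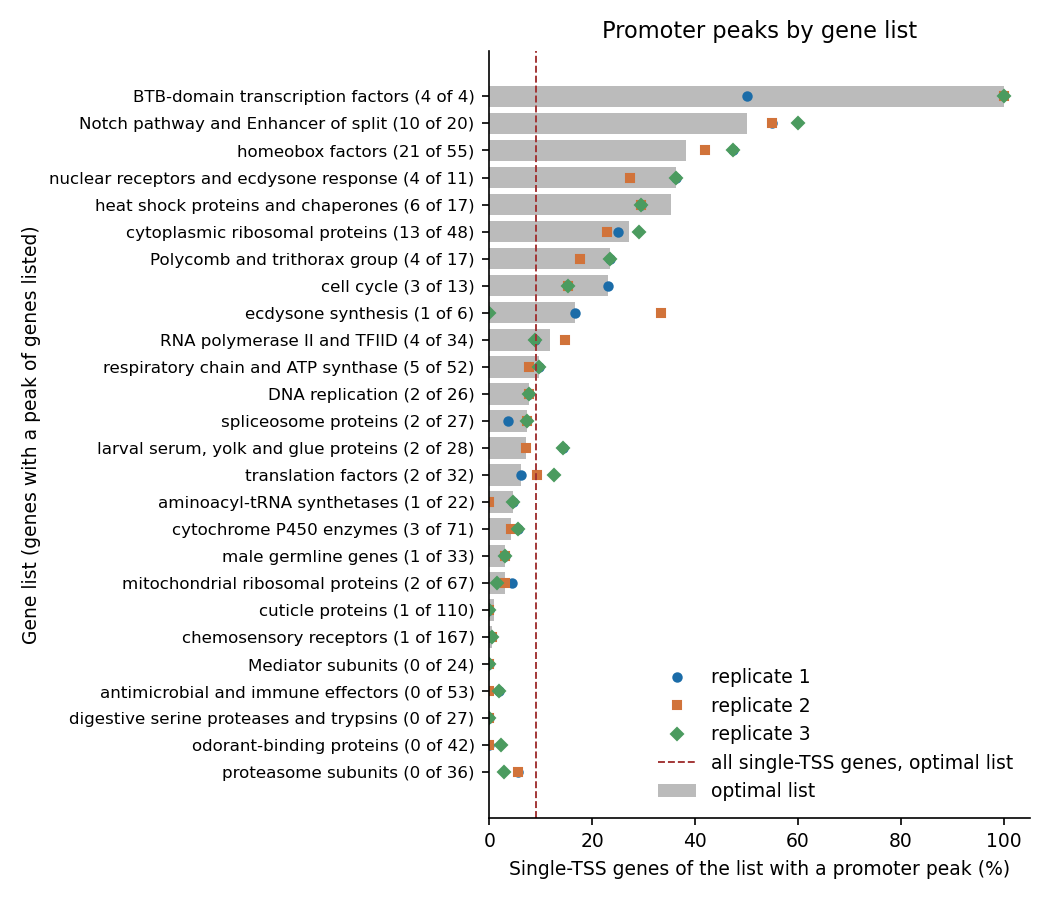
Percent of single-TSS genes with a promoter peak in 26 gene lists (x axis; list names on the y axis, with the counts in the optimal list), with bars for the optimal list and symbols for the 3 replicates, which overlap where they are equal. The dashed line is the 9.16% over all single-TSS genes; BTB factors, Notch pathway genes and homeobox factors lie farthest above it, and replicate 1 has 2 of the 4 BTB genes.

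Single-TSS promoters were compared with other promoters through 5 planned differences between replicate lists, each tested over the 3 replicates by an exact two-sided sign-flip permutation, whose smallest possible p is 0.25, so no difference could pass 0.05. Against peaks at the first promoters of multi-TSS genes (716 in the optimal list), the share with GAGAG was lower by 5.13, 3.07 and 2.20 percentage points in replicates 1, 2 and 3, a difference of −3.47 ± 1.50 (exact p = 0.25, adjusted p = 0.312). Peaks with TSSs of 2 genes on opposite strands within 500 bp of the summit numbered 958 and are called divergent here. These genes were not required to run apart. Against divergent peaks, the share was higher by 14.8, 11.3 and 13.7 points, a difference of 13.2 ± 1.80 (exact p = 0.25, adjusted p = 0.312). GAGAG was thus present in 40.7% ± 1.08 of single-TSS promoter peaks, 44.2% ± 1.15 of first-promoter peaks and 27.5% ± 1.79 of divergent ones. As a share of genes, promoter peaks by the same rule were called at 34.3% of the 3699 multi-TSS genes. Such a gene has more than 1 TSS at which a peak can be counted, so this share is not like for like with the 9.16% of single-TSS genes.

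Scores and positions were compared in the same way. The median relative score was 0.992, 1.05 and 1.05 at single-TSS promoters, below that of first promoters in every replicate (difference −0.0758 ± 0.0385, exact p = 0.25, adjusted p = 0.312). Its difference from divergent promoters, 0.0102 ± 0.0316, was smaller than the spread between replicates (exact p = 0.75, adjusted p = 0.75). The share of summits upstream of the TSS was higher than at first promoters by 1.85 ± 1.31 points (exact p = 0.25, adjusted p = 0.312). The DREF site placed single-TSS promoters between the others: TATCGATA was present in 7.43% ± 0.754 of their peaks, 4.87% ± 0.141 of first-promoter peaks and 12.3% ± 0.510 of divergent ones. GGTCACAC was present in 5.39% ± 0.0735, 5.05% ± 0.201 and 9.94% ± 0.607, and its difference from first promoters was small, 0.347 ± 0.272 points. CACACACA was present in 11.2% ± 1.37, 15.3% ± 0.558 and 7.34% ± 0.256, and the downstream band held 13.5% ± 1.50, 14.9% ± 1.80 and 3.10% ± 0.25 of the peaks. Position was taken from the nearest TSS, and divergent peaks have TSSs of 2 genes within 500 bp. Their low downstream share was thus partly set by the definition of the class.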

How the data were processed

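The deposited files are lists of ChIP-seq peaks from 3 biological replicates of 1 group and an optimal list thresholded by the authors on the irreproducible discovery rate, per the deposited file listing. The score of each peak was deposited by the authors as the signal value of the format and was used only within a list or after division by a list's median. Summits were computed from the deposited offsets. Depth is unknown, and which aligner and peak caller were used is not given in the sources used here. The dm3 lists, signal tracks and peaks off the nuclear arms were not used. 

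Genes and TSSs came from Ensembl release 115 (18164 genes without transposable elements, 23998 TSSs) and sequence from RefSeq, both dm6. All peaks lay within the chromosome lengths. Words were searched on both strands within 100 bp of summits, and summits were matched within 200 bp. Python 3.11.15, numpy 2.4.6, pandas 2.3.3 and matplotlib 3.10.9 were used, and classification, matching and word search were checked on simulated data. The replicate is the unit of error (SD, n = 3), and peaks are not replicates. The 5 planned differences were tested by exact sign flips with Benjamini-Hochberg adjustment over the 5.

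Named genes are those of the 20 highest-scoring peaks found in all replicates and up to 4 per gene list, with genes lacking a peak where 5 or fewer; N was added after its values were seen. Sequences are from these and from the 2 highest-scoring holders of each word in each band of position, with chromosome arm 2R left out. The members, the 13 words and the 26 gene lists were chosen with earlier results of these data known, and 1 gene was taken off the male germline list after its value was seen. Alternatives were a 250 bp promoter window, merged TSSs, coding TSSs alone, the 5069 highest-scoring peaks alone, other flanks, a 100 bp match, another score scale and leaving out each replicate.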

Additional observations from a re-analysis of the deposited data

How the results depend on the processing

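Of 85 results recomputed under an alternative, 59 stayed the same, 24 moved and 2 changed sign. A difference counted as the same when it kept its sign, a number of peaks when it was within 1.5 times, and a share or median when it moved by less than 1 SD over replicates. Both changes of sign were in the median relative score against divergent promoters, which became −0.0404 with a promoter window of 250 bp and ran from −0.00556 (without replicate 3) to 0.0261 when a replicate was left out, from 0.0102; the cause was not tested. With the 250 bp window, 10.2% of single-TSS genes had a peak, 36.5% of peaks held GAGAG and 60.2% lay upstream. With the TSSs of protein-coding genes alone, 9.66% of genes had a peak. The 5069 highest-scoring peaks gave 549 peaks at 5.13% of genes, with GAGAG at 47.2%, a median relative score of 1.63 and 87.6% found in all replicates. GAGAG was present in 23.9% of peaks within 50 bp and 57.9% within 250 bp of the summit, which follows from the window length. Matching within 100 bp gave 51.7% of peaks in all replicates, in place of 58.2%, and scaling to the whole replicate list gave a median relative score of 3.52. When each replicate was left out, 667 to 702 peaks (65.6% to 69.0% of the 1017) were found in both of the others. These lay at 6.15% to 6.45% of genes, and 44.2% to 44.6% of them held GAGAG. No paired analysis was possible because the series has 1 group. Unknown depth limits every statement on promoters without a peak, as does the mixture of tissues in whole larvae.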
